A study of Homo sapiens with 6 samples.

Results

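The mRNA levels of 7 genes of the RAS, RAF, MEK and ERK kinase cascade were followed after *DUSP6* depletion. They are the RAS genes *NRAS* and *HRAS*, the RAF kinase genes *ARAF* and *BRAF*, the MEK genes *MAP2K1* and *MAP2K2*, and the ERK gene *MAPK3*. The members were picked by gene symbol, by a rule that holds no measured value but was set with earlier results of these data known, and are 7 of the 22807 genes in the deposited table. The RNA came from the HER2+ breast cancer cell line MDA-MB-453, for which the labels name no other allele or agent. In the scrambled group (3 libraries, genotype labelled WT) the cells had received scrambled siRNA. In the DUSP6 knockdown group (3 libraries, genotype labelled DUSP6 KD) they had received siRNA against *DUSP6*, in both groups with a lipid transfection reagent and in RPMI with serum. The study's legend gives several siRNAs per group, but not the siRNA of each library, and no time after transfection is used here. The p-values measure the spread between the libraries of a group, which can include differences between siRNAs.

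RAS proteins are small GTPases that switch on when growth factor receptors such as HER2 recruit exchange factors. Active RAS brings RAF kinases to the membrane, RAF phosphorylates MEK, and MEK phosphorylates ERK, which enters the nucleus and acts on transcription factors. DUSP6 is a cytoplasmic phosphatase that removes the activating phosphates from ERK, and its own gene is induced by ERK signaling. Expression data of this kind measure the mRNA of these proteins and not their GTP loading or phosphorylation.

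The libraries held 45546981 to 85729785 reads assigned to genes, and 1 read was worth a normalized value of 0.0121 to 0.0202. *DUSP6* itself had normalized values of 209, 110 and 114 in scrambled replicates 1 to 3 and 39.4, 24.5 and 35.2 in knockdown replicates 1 to 3, so that the groups did not overlap. Its log2 fold change was -2.05 (SE 0.25, limma adjusted p = 3.09e-04). All 9 luminal and HER2 markers looked up had a value of at least 139.9 in each library, and *ERBB2* ranged from 456.8 to 1068. Of 11 markers of fibroblasts, leukocytes and endothelium, 8 were in the table. Of these, *COL3A1*, *PTPRC* and *CDH5* were at 0 in at least 1 library and 7 stayed below 0.3, whereas *COL1A1* ranged from 80.7 to 192. The sum of the 8 was 81.2 to 105.7 with scrambled siRNA and 162.3 to 192.8 with *DUSP6* siRNA, nearly all of it *COL1A1*. The sum of 10 interferon-stimulated genes was 18.8 to 56.4 with scrambled siRNA and 3197 to 3772 with *DUSP6* siRNA. Both sums moved with the groups, and their part in the results was not tested.

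*HRAS* and *MAPK3* were the members that fell, and the DNA just before the RefSeq start of both is shown because the change concerns their mRNA. *NRAS* is shown beside them as the RAS paralogue that was not called. The sequences come from RefSeq promoters on GRCh38.p14. They cover the stretch of the 250 bases before the RefSeq gene start that holds no annotated exon of GENCODE v44. GENCODE v44 starts *HRAS* and *MAPK3* further upstream, at chr11:537321 and chr16:30123506. The stretches of these genes thus lie inside the GENCODE genes, outside their exons. Each is written 5′ to 3′ on the gene's minus strand. The capitals mark the GC box GGGCGG or its reverse complement CCGCCC.
*HRAS* (chr11:535577-535826, minus strand): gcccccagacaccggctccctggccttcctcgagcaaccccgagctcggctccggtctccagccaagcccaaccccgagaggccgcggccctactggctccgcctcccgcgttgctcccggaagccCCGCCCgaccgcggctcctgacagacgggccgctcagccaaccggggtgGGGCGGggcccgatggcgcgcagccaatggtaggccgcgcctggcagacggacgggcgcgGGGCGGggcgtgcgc
*MAPK3* (chr16:30123310-30123470, minus strand): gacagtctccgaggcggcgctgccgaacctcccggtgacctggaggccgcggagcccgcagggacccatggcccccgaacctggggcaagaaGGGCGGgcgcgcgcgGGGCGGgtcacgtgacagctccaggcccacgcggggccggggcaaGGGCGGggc
*NRAS* (chr1:114716772-114716912, minus strand): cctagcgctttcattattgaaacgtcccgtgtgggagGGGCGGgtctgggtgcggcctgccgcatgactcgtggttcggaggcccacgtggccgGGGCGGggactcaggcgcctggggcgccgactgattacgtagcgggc

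In the full 250 bases before the RefSeq gene start, the GC box was found 3 times for *HRAS*, 6 times for *MAPK3* and 2 times for *NRAS*. Of the *MAPK3* matches, 3 lie in the printed stretch, and the 89 bases of its window left out there are an annotated *MAPK3* exon. The same search gave 3 matches for *MAP2K1*, 2 for *MAP2K2* and 0 for *ARAF*, which were not called either, and *BRAF* had only a window of another start. Both strands were searched, overlapping matches were counted, and 42.6% of 35116 promoters held at least 1 match and 7.63% held 4 or more. The GC content of the window was 77.2% for *HRAS*, 80.4% for *MAPK3* and 54.4% for *NRAS*. The E-box CACGTG occurred 1 time each for *MAPK3* and *NRAS* and 0 times for *HRAS*, against 6.34% of all promoters with at least 1. The ETS motif CCGGAA occurred 1 time each for *HRAS* and *ARAF*, against 14.5%. The CCAAT box occurred 1 time each for *HRAS* and *MAP2K1*, 2 times for *ARAF* and 0 times for *MAPK3*, *NRAS* and *MAP2K2*, against 32% of all promoters. These matches describe the letters of the windows only.

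*HRAS* was lower after *DUSP6* depletion, while *NRAS* was not called. Both encode RAS GTPases, and *HRAS* (Entrez gene 3265, chr11:532242-535576, minus strand) lies on the short arm of chromosome 11. Its normalized values were 135.1, 126.1 and 144.4 in scrambled replicates 1 to 3 and 83.6, 74.3 and 75.4 in knockdown replicates 1 to 3. All knockdown libraries lay below all scrambled ones, with a wide gap between the groups. The mean went from 135 ± 9.15 (SD, n = 3) to 77.8 ± 5.09 (SD, n = 3), which is 57.5% of the scrambled level. On the log2 scale *HRAS* fell by 0.79 (SE 0.09, 95% interval -0.999 to -0.58, limma adjusted p = 2.47e-04). The two-sided exact permutation test gave p = 0.1, the smallest that 3 libraries against 3 allow. edgeR on the recovered reads gave -0.76 (adjusted p = 3.89e-04). In these bulk libraries of a cell line, fewer cells with *HRAS* mRNA and less of it per cell cannot be told apart.

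*NRAS* (Entrez gene 4893, chr1:114704469-114716771, minus strand) had normalized values of 50.03, 77.5 and 59.7 in scrambled replicates 1 to 3 and 70.2, 81.6 and 76.3 in knockdown replicates 1 to 3. The scrambled replicate 2 library lay among the knockdown libraries, so the groups overlapped. The coefficient of variation was 22.4% among scrambled and 7.55% among knockdown libraries. The log2 fold change was 0.30 (SE 0.15, 95% interval -0.04 to 0.64, limma adjusted p = 0.132), which misses the threshold and does not show that the levels are alike. Without scrambled replicate 2 the fold change was 0.47 and *NRAS* was called higher (limma adjusted p = 0.0138), and without scrambled replicate 1 it was 0.16.

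The RAF kinase genes were not called. *ARAF* (Entrez gene 369, chrX:47561205-47571908, plus strand) had normalized values of 61.0, 58.1 and 64.0 in scrambled replicates 1 to 3 and 60.9, 60.5 and 56.5 in knockdown replicates 1 to 3. These values overlapped nearly completely, with coefficients of variation of 4.85% and 4.05%. Its log2 fold change was -0.04 (SE 0.09, 95% interval -0.24 to 0.16, limma adjusted p = 0.725), so that the interval leaves out a fall as large as that of *HRAS*. Its sign turned to 0.05 under quantile normalization and to 0.19 when values were scaled to total reads. Exons of *SYN1* on the opposite strand cover 0.3% of its exon sequence, and *SYN1* reached a value of at most 0.0611.

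*BRAF* (Entrez gene 673, chr7:140713328-140924929, minus strand), the RAF family member with the longest transcript among the members, had normalized values of 18.9, 22.8 and 15.8 in scrambled replicates 1 to 3. The knockdown values were 21.5, 25.9 and 24.0 in replicates 1 to 3. Scrambled replicate 2 was above knockdown replicate 1, so the groups overlapped. The log2 fold change was 0.31 (SE 0.14, 95% interval -0.01 to 0.63, limma adjusted p = 0.104). Without scrambled replicate 2 it was 0.43 and *BRAF* was called higher (limma adjusted p = 0.0272), and without scrambled replicate 3 it was 0.18.

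The MEK genes were not called either. *MAP2K1* (Entrez gene 5604, chr15:66386912-66491544, plus strand) had normalized values of 76.5, 69.7 and 88.9 in scrambled replicates 1 to 3 and 83.3, 85.5 and 86.8 in knockdown replicates 1 to 3. The knockdown values lay inside the range of the scrambled ones, and the log2 fold change was 0.13 (SE 0.10, 95% interval -0.11 to 0.36, limma adjusted p = 0.344). Without scrambled replicate 3 it was 0.22 and *MAP2K1* was called higher (limma adjusted p = 0.0498). The value of *MAP2K1* is uncertain, since its exons overlap those of other genes on the opposite strand in GENCODE v44. Exons of *SNAPC5* cover 8.5% of the *MAP2K1* exon sequence and those of an unnamed gene cover 12.7%. The reads were counted over RefSeq gene models, and whether these overlaps changed the value was not tested. The counting was run with default settings, which do not use strand. *SNAPC5* had normalized values of 8.76 to 9.55 with scrambled and 7.03 to 8.02 with *DUSP6* siRNA.

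*MAP2K2* (Entrez gene 5605, chr19:4090321-4124122, minus strand) had normalized values of 57.4, 60.5 and 45.0 in scrambled replicates 1 to 3 and 55.5, 53.5 and 53.3 in knockdown replicates 1 to 3. Here too the knockdown libraries fell within the scrambled range. The log2 fold change was 0.01 (SE 0.12, 95% interval -0.26 to 0.27, limma adjusted p = 0.973). It turned to -0.12 without scrambled replicate 3.

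*MAPK3*, which encodes the ERK1 kinase (Entrez gene 5595, chr16:30114105-30123220, minus strand), was the other member that fell. Its normalized values were 150.8, 158.4 and 149.1 in scrambled replicates 1 to 3 and 92.1, 94.1 and 84.6 in knockdown replicates 1 to 3. All knockdown libraries lay below all scrambled ones, and the spread within each group was small beside the gap. The mean went from 153 ± 4.98 (SD, n = 3) to 90.3 ± 4.98 (SD, n = 3), 59.1% of the scrambled level. On the log2 scale *MAPK3* fell by 0.75 (SE 0.08, 95% interval -0.94 to -0.56, limma adjusted p = 1.95e-04). The exact permutation test again gave p = 0.1, and edgeR gave -0.72 (adjusted p = 3.19e-04).

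**Figure D1:**
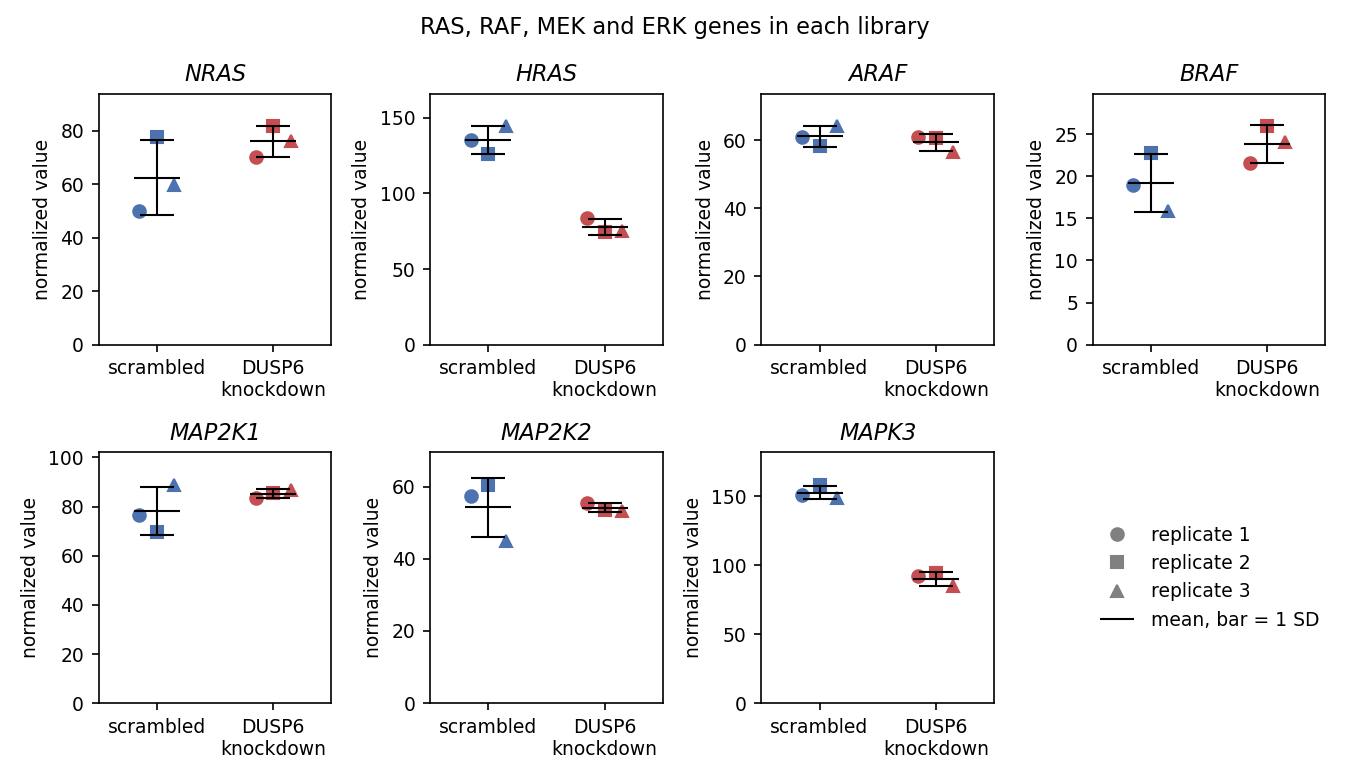
Normalized value (vertical axis, from 0, own range per panel) of each of the 7 members in the scrambled and the DUSP6 knockdown libraries, with 1 symbol per replicate number, the mean and 1 SD. The knockdown symbols of *HRAS* (74.3 to 83.6) and *MAPK3* (84.6 to 94.1) lie below all scrambled symbols, and those of the other 5 members overlap them.

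Of the 7 members, 2 were lower and 0 higher with *DUSP6* siRNA at a limma adjusted p under 0.05, and 5 were not called. At an unadjusted limma p under 0.05 the number higher was 0 as well. The share called lower was 24.7% of the 12862 genes tested, and the share called higher was 19.7%, so 2 of 7 is near the background and no result about the members as a group. Likewise 2 members were lower without overlap between the groups, beside 31.1% of all genes tested, and 0 were higher without overlap, beside 26.7%. Of all genes tested, 924 fell more than *HRAS* and 1026 more than *MAPK3*, and 11.8% and 13.2% had an absolute fold change at least as large. The median log2 fold change was 0.01 over the 7 members and -0.01 over all genes tested. With edgeR, 2 members were lower and 0 higher at the same threshold.

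The counts over all genes depended on the scaling. As deposited, 3179 genes were lower and 2540 higher. When the reads were scaled to the total of each library, a setting added after the data had been seen, 1800 were lower and 4777 higher, and the median of all genes moved to 0.20 on the log2 scale. Under that scaling *HRAS* was at -0.56 and *MAPK3* at -0.53, both still called lower, and *NRAS*, *BRAF* and *MAP2K1* were called higher. Relative to the median of all genes, the values were -0.76 for *HRAS*, -0.72 for *MAPK3*, 0.33 for *NRAS*, 0.33 for *BRAF* and 0.16 for *MAP2K1*.

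**Figure D2:**
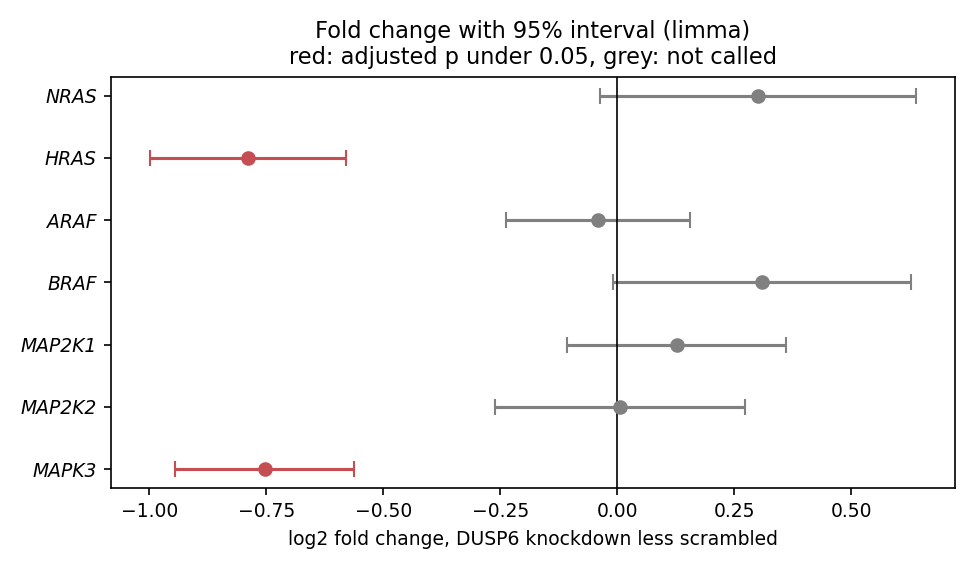
Log2 fold change, DUSP6 knockdown less scrambled, of each member with its 95% interval from limma (horizontal axis). The intervals of *HRAS* (-0.999 to -0.58) and *MAPK3* (-0.94 to -0.56) lie below 0, and those of the other 5 include 0.

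Levels were compared between members only per length of the MANE Select transcript, and are given as normalized value per kb. With scrambled siRNA, *HRAS* stood highest at 126 ± 8.55 (SD, n = 3), followed by *MAPK3* at 85.5 ± 2.79. *MAP2K2* (26.1 to 35.0) and *MAP2K1* (27.4 to 34.9) came next, and their ranges overlapped. *ARAF* followed at 24.4 to 26.9, which overlapped *MAP2K2* but not *MAP2K1*. *NRAS* at 11.6 to 17.9 and *BRAF* at 2.45 to 3.53 were lowest, with no overlap with their neighbors.

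With *DUSP6* siRNA, *HRAS* (72.7 ± 4.76) and *MAPK3* (50.5 ± 2.79) were still the highest 2 per kb. *MAP2K1* (32.7 to 34.1) came before *MAP2K2* (30.8 to 32.1), without overlap, and *ARAF* (23.8 to 25.6), *NRAS* (16.2 to 18.9) and *BRAF* (3.33 to 4.02) followed. The middle of the order depends on the length used. With all annotated exons merged, *NRAS* ranked 4 with scrambled siRNA and 3 with *DUSP6* siRNA, while *HRAS*, *MAPK3* and *BRAF* held their ranks. The transcripts ranged from 1070 bases for *HRAS* to 6459 for *BRAF*. GC content was 64.3% for *HRAS* and 61.0% for *MAPK3*, but 65.4% for *MAP2K2*, which was not called, and 37.4% for *NRAS*.

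**Figure D3:**
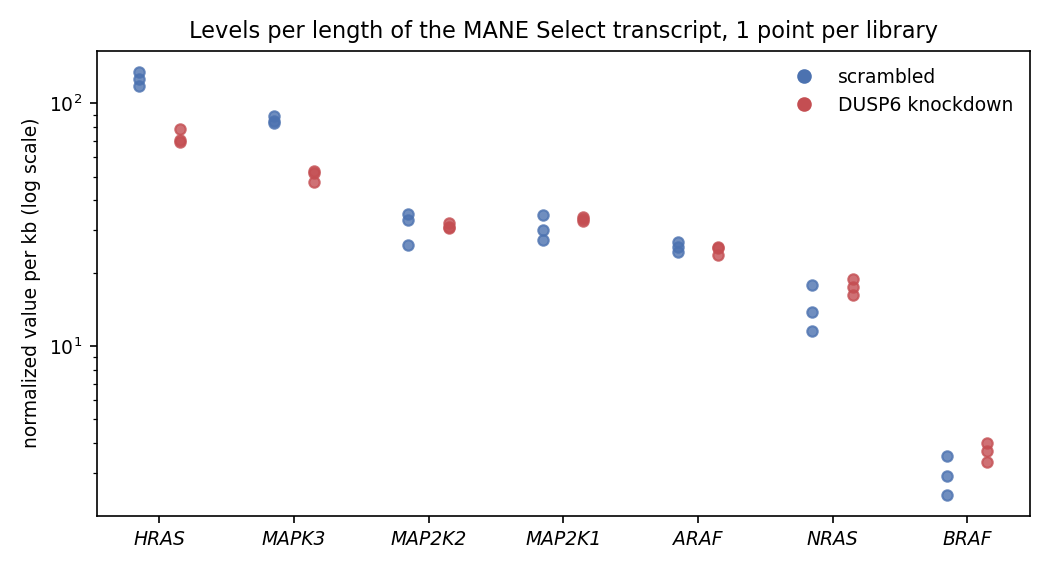
Normalized value per kb of the MANE Select transcript (vertical axis, log scale) of each member, with 1 point per library, in order of the scrambled mean. *HRAS* and *MAPK3* are highest in both groups and *BRAF* is lowest, at 2.45 to 4.02.

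Paralogues were also compared within each library, as the log2 ratio of their values + 1, which depends on the scaling between libraries only through the 1 that is added. The log2 ratio of *NRAS* to *HRAS* was -1.42, -0.69 and -1.26 in scrambled replicates 1 to 3 and -0.25, 0.13 and 0.02 in knockdown replicates 1 to 3. The ratio was higher in each knockdown library than in any scrambled one. These ratios are not corrected for length, so they bear on the change between groups and not on which gene is more abundant. The mean ratio moved by 1.09 (SE 0.25) on the log2 scale, with p = 0.1 in the exact permutation test, the smallest it can give, and 0.3 after Benjamini-Hochberg adjustment over the 3 ratios. *BRAF* to *ARAF* differed by 0.35 (SE 0.20, exact permutation p = 0.2, adjusted 0.3), and the groups overlapped. *MAP2K1* to *MAP2K2* differed by 0.12 (SE 0.23, exact permutation p = 0.7, adjusted 0.7). Its scrambled values of 0.20 to 0.97 enclosed the knockdown values of 0.58 to 0.69, and without scrambled replicate 2 the difference was -0.04.

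**Figure D4:**
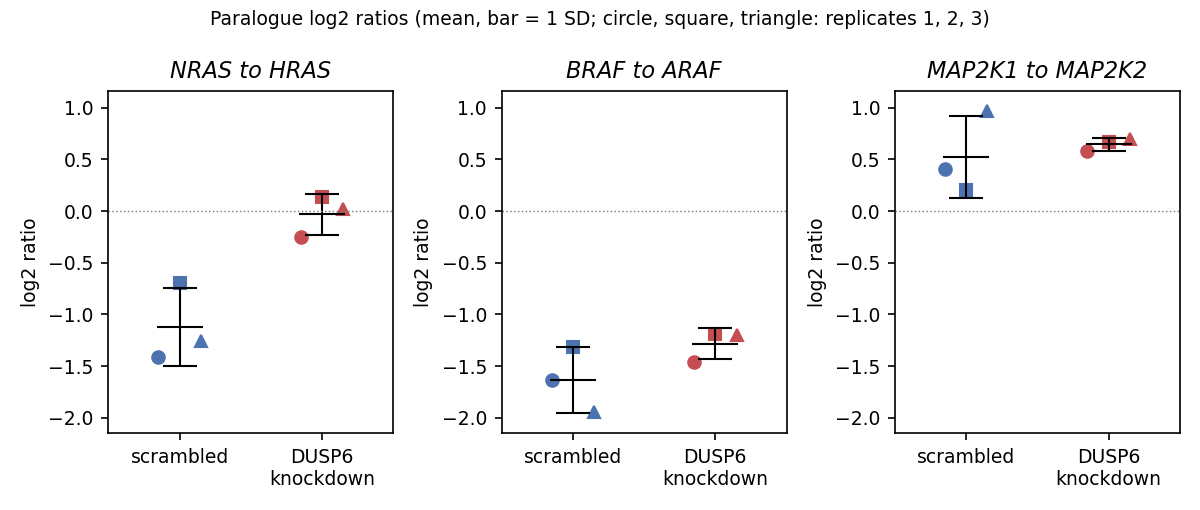
Log2 ratio of each pair of paralogues (vertical axis) in each library, with the mean and 1 SD per group. The *NRAS* to *HRAS* ratios lie at -1.42 to -0.69 with scrambled siRNA and at -0.25 to 0.13 with *DUSP6* siRNA, and the other pairs overlap.

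The members were set beside 92 other genes of the pathway in 8 lists, of which 83 were tested. Over all lists 27 genes were lower and 13 higher at a limma adjusted p under 0.05, and 43 were not called. The siRNA target *DUSP6* is counted among the 83 tested and the 27 lower genes. That is 32.5% lower and 15.7% higher of the genes tested in the lists, beside 24.7% and 19.7% of all genes tested. The counts of the single lists, of 8 to 16 tested genes each, are to be read against the same 24.7% and 19.7%. The median log2 fold change over the lists was -0.08, against -0.01 over all genes. The direction of the counts followed the scaling, with 19 genes lower and 31 higher when values were scaled to total reads. Of all 12862 genes tested, 1800 were lower and 4777 higher under that scaling.

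Among adaptors and exchange factors, which link receptors to RAS, 3 of 9 tested genes were lower and 2 higher (median log2 fold change -0.08). *GAB1*, a docking protein for activated receptors, fell by 0.93 (SE 0.10, limma adjusted p = 1.30e-04). Its relative *GAB2* rose by 0.73 and the exchange factor gene *RASGRP1* by 0.74, the latter from a mean value of 1.47 to 3.03. Of the RAS GTPase-activating proteins and RAS inhibitors, 4 of 9 were lower and 1 higher (median 0.03). The lower ones included *DAB2IP* (-0.77) and *RASAL2* (-0.71), which speed GTP hydrolysis by RAS, and *RIN1* (-0.73), an effector that competes with RAF for RAS. The 1 higher gene, named after its value was seen, was the GTPase-activating protein gene *RASA2* (0.65).

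Genes for RAS lipid processing and transport gave 3 lower and 1 higher of 10 (median -0.06). *LYPLA1*, a thioesterase that can remove palmitate from HRAS and NRAS proteins, had normalized values of 105, 86.6 and 102 in scrambled replicates 1 to 3 and 30.01, 28.4 and 31.1 in knockdown replicates 1 to 3. The groups lay far apart, and *LYPLA1* fell by 1.68 on the log2 scale (SE 0.10, limma adjusted p = 8.25e-06). *ICMT*, which methylates the processed RAS terminus, had a fold change of -0.37 and was not called under quantile normalization, scaled to total reads or without knockdown replicate 3. *RCE1*, the protease acting before it, had 0.40 and lost its call without scrambled replicate 1, knockdown replicate 1 or knockdown replicate 2. Of the related small GTPases, 3 of 8 were lower and 1 higher (median -0.23). *RALB*, a target of RAS effectors, fell by 0.92. *MRAS* rose by 0.56 from a mean of 1.75 to 3.03, and *RRAS* had -0.57. The *RRAS* call was lost without the filter on low values and when values were scaled to total reads. That call was also lost without scrambled replicate 1, knockdown replicate 2 or knockdown replicate 3.

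RAF regulators and pathway scaffolds held 5 lower and 2 higher genes of 16 (median -0.06). *PAK1*, a kinase that phosphorylates RAF and MEK, fell by 0.87 (limma adjusted p = 5.78e-04). *CDC37*, the HSP90 cochaperone for kinases, fell by 0.79 (limma adjusted p = 2.33e-04). *KSR1*, a scaffold that holds RAF, MEK and ERK together, rose by 0.74 from a mean of 1.84 to 3.74.

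Among ERK substrates, 2 of 10 were lower and 1 higher (median -0.15). *MKNK1*, a kinase that acts on the cap-binding factor, fell by 0.67. *MKNK2* (-0.26) and the ETS factor gene *ELK4* (0.26) had small changes whose calls were lost in several settings. Of the ERK output genes, 5 of 10 were lower and 3 higher (median -0.48), with the targeted *DUSP6* among the 5. *SPRY4*, a feedback inhibitor of the pathway, fell by 1.25 (SE 0.11, limma adjusted p = 4.68e-05). *ETV4*, an ETS factor, had -1.18 (limma adjusted p = 0.0369) and -0.63 without scrambled replicate 1. Its call was lost without the filter on low values and without any 1 of the knockdown libraries (limma adjusted p of up to 0.128). The remaining lower genes, named after their values were seen, were *DUSP4* (-1.17) and *CCND1* (-0.61), which kept their calls under all settings run. Named after their values were seen, the 3 higher genes were *EPHA4* (1.01), *SPRY2* (0.98) and *PHLDA1* (0.48), the last with its call lost in 6 of 14 other settings, among them no filter and quantile normalization. The feedback genes *SPRY2* and *SPRY4* thus moved in opposite directions, from means of 2.73 to 6.38 and of 112 to 46.7. In the other MAP kinase modules, 2 of 11 were lower and 2 higher (median 0.19). *MAPK9* of the JNK module fell by 0.51. The p38 genes did not move one way. *MAPK11* and *MAPK12* rose by 0.91 and 0.92 from mean values of 6.31 and 1.29. *MAPK13*, named after its value was seen, fell by 0.40 from a mean of 105.9 to 80.03, with the call lost when values were scaled to total reads. *MAPK14*, likewise named, had 0.35 and was not called.

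**Figure D5:**
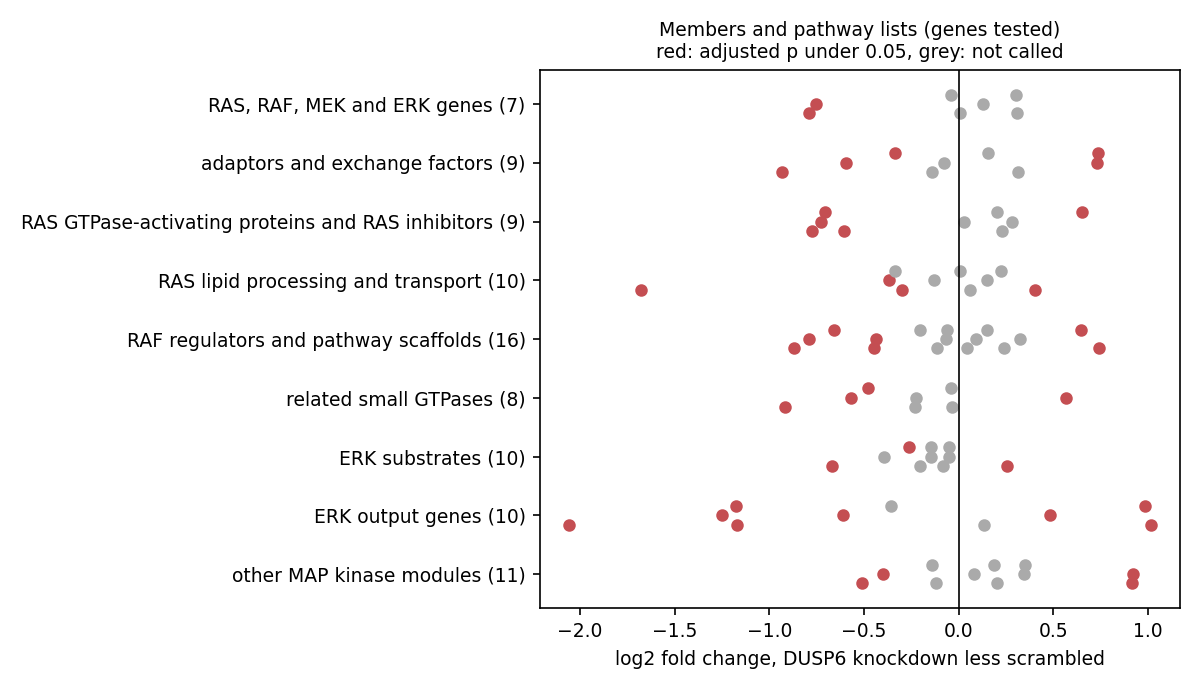
Log2 fold change, DUSP6 knockdown less scrambled (horizontal axis), of each tested gene of the 7 members and the 8 lists, with the number of tested genes in brackets and called genes in red. Called genes lie on both sides of 0 in each of the 8 lists, and the called members lie at -0.79 and -0.75.

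Finally, the genes whose profile over the 6 libraries was nearest to the called members were found among 9561 genes whose mean value reached 10. The measure was the root mean square difference of centred log2 values, which mainly reflects a like fold change between the groups. Nearest to *HRAS* were *SPAG5* (0.0307), *TRPS1* (0.0326) and *FAM83D* (0.0336). Nearest to *MAPK3* were *TIAM1* (0.0371), *ARHGEF39* (0.0461) and *CCNO* (0.0493). *HRAS* and *MAPK3* differed by 0.104 on this measure, so that *MAPK3* ranked 177 for *HRAS* and *HRAS* ranked 163 for *MAPK3*.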

How the data were processed

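RNA of MDA-MB-453 cells was sequenced in 6 libraries, 3 per group, from a stranded mRNA kit. The authors aligned the reads to hg38 and counted them over RefSeq gene models with Rsubread, and deposited 1 normalized signal value per gene and library. Their processing notes name bcl2fastq and edgeR. Dividing each deposited signal value by the value of 1 read in its library gave whole reads (tolerance 0.01 reads, 100% of values), and the factors behind these read values differed from edgeR's TMM scaling of the recovered reads by at most 4.44e-16. A value is thus a read number divided by a library size that TMM has adjusted. Totals of 45546981 to 85729785 reads make counting error small for the members, so the spread between libraries sets the precision. 

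Genes whose mean value reached 1 were tested with limma 3.58.1 (lmFit, eBayes with a trend) in R 4.3.3 on log2(value + 1), as 12862 of 22807 genes, with Benjamini-Hochberg adjustment over all of them and calls at an adjusted p under 0.05. Fold changes are on this log2(value + 1) scale, which understates those of low genes. edgeR 4.0.16 (quasi-likelihood) on the recovered reads was an alternative. The methods were tested on simulated data. Lengths and GC content come from GENCODE v44 MANE Select transcripts, since an exon annotation of RefSeq was not used here. A gene with over 5% of its exons shared was called uncertain. Named were the members, *DUSP6*, genes whose exons overlap a member, up to 3 genes per list with the largest change and no overlap, and the 3 nearest profiles of the called members. The members and lists were chosen with earlier results of these data known. Other settings were a mean value of 10 as the filter or none, a pseudocount of 0.1, median of ratios, quantile normalization, no trend, a replicate block, leaving out each library, and, added after the data had been seen, scaling to total reads.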

Additional observations from a re-analysis of the deposited data

How the results depend on the processing

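*HRAS* and *MAPK3* were called lower under every setting run, with log2 fold changes of -0.84 to -0.56 and -0.78 to -0.53 and limma or edgeR adjusted p of at most 0.00294 and 0.00222. *DUSP6* was called lower throughout, at -2.22 to -1.76. Scaled to total reads, *NRAS* (0.53), *BRAF* (0.53) and *MAP2K1* (0.35) were called higher, and *ARAF* turned to 0.19. That makes 3 members higher, beside 4777 of all 12862 genes tested. Quantile normalization turned *ARAF* to 0.0457. The pathway lists held 31 genes higher under total reads and 20 under quantile normalization, instead of 13. They held 5 with a mean value of at least 10, where fewer genes were tested. Over all genes tested, 4777 were higher under total reads, 2963 under quantile normalization and 1639 with that filter, instead of 2540. The TMM factors in the deposited values were 0.881 to 0.968 in the scrambled and 1.08 to 1.09 in the knockdown libraries. Scaling to total reads leaves these factors out. Apart from that and the filter at 10, the cause was not tested.

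When each of the 6 libraries was left out in turn, the fold change ranged from -0.84 to -0.74 for *HRAS*, -0.78 to -0.71 for *MAPK3*, 0.16 to 0.47 for *NRAS*, -0.08 to -0.01 for *ARAF*, 0.18 to 0.43 for *BRAF*, 0.0465 to 0.22 for *MAP2K1* and -0.12 to 0.0877 for *MAP2K2*, which was -0.01 without knockdown replicate 1. The number of members higher ranged from 0 to 2, and 20 to 28 pathway genes were lower and 10 to 17 higher. Over all 12862 genes tested, 2306 to 3581 were lower and 1574 to 3183 higher in these fits. The *MAP2K1* to *MAP2K2* ratio differed by -0.0412 to 0.34. Of the 40 pathway genes called, 28 kept their call under all settings in which they were tested and 12 lost it under at least 1. Called genes with a mean value under 10, such as *RASGRP1*, *KSR1* and *SPRY2*, were not tested with the filter at 10.

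Same-numbered libraries showed little pairing in their values, with correlations of 0.005, 0.087 and -0.076 between same-numbered deviations. Such correlations cannot show whether the libraries were prepared in pairs. With the replicate block, *HRAS* stayed at -0.79 (limma adjusted p = 1.89e-04) and *MAPK3* at -0.75, and no other member changed its call. Over all genes the replicate block gave 3096 lower and 2495 higher, and of the ERK substrates 1 lower and 0 higher. The NRAS to HRAS ratio had p = 0.25 in the exact sign-flip test with the replicate block, the smallest it can give. With 3 libraries per group, the intervals allow changes of up to 0.64 for *NRAS* and 0.63 for *BRAF*.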
